A study of Mus musculus with 9 samples.

Results

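Heat shock proteins and related chaperones were followed in the fetal and newborn mouse urogenital sinus through 10 genes: Hspa1a, Hspa1b, Hsph1, Dnajb1, Hspa8, Hsp90aa1, Hspb1, Hspd1, Hspe1 and Hspa5. Every probe set annotated to one of these symbols alone was taken, on all 9 arrays, after the arrays had been brought to a common scale. This gave 25 probe sets, of 34958 that carried a single gene symbol and stood for 18194 genes. Of the 25, 24 reached the level filter, a normalised signal of about 41.2 averaged over the arrays on the log2 scale. A dim Hsp90aa1 probe set, 1441827_x_at, did not. The genes were proposed with their levels on these same arrays in view, so those levels, and the differences fitted to them, are described here and carry no test.

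Chaperones bind proteins that are not in their final fold and help them reach it, keep it or be degraded. The HSP70 proteins work in cycles of ATP hydrolysis that are driven by J-domain partners and reset by nucleotide exchange factors, HSP90 acts later on kinases, steroid hormone receptors and other clients, and small heat shock proteins hold unfolding proteins without using ATP. In cells under heat or other stress that damages proteins, heat shock factors bind the promoters of the inducible members, whereas in the endoplasmic reticulum (ER) the unfolded protein response controls a separate set. Hsp90 and its partners also hold unliganded estrogen receptors, which act in the developing urogenital sinus.

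The urogenital sinus is the fetal precursor of the prostate and of the neck of the bladder. RNA came from C57BL/6 mice whose mothers were given, from embryonic day 13 to 16, vehicle (tocopherol-stripped corn oil), diethylstilbestrol (DES, a potent synthetic estrogen) at 0.2 µg/kg/day or, at 20 µg/kg/day, bisphenol A (BPA, a building block of plastics that binds estrogen receptors weakly). Collection was on embryonic days 17 and 18 (E17, E18) and at birth (P0), and each of the 3 agents has 1 array at each of the 3 ages. Neighbouring organs (bladder, urethra, Wolffian and Mullerian ducts, seminal vesicle) were dissected away in both sexes, and the labels give neither the sex nor the number of animals or litters behind an array.

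The letters upstream of the genes are shown first, because the members differ in them. The search was chosen after the array values had been seen, and any link to those values was not tested. RefSeq promoter windows of 250 bases before and 50 after the annotated transcription start (assembly GRCm38.p6) were found for 8 of the 10 genes, with more than 1 start for Hsph1, Dnajb1 and Hspd1, and with no entry for Hspa8 and Hsp90aa1. Both strands were searched for 2-unit heat shock patterns, GAANNTTC and TTCNNGAA, and for the 3-unit heat shock element, which is GAANNTTC followed by NNGAA and so contains both. They were also searched for the ER stress response element, CCAAT and CCACG with 9 bases of any kind between them. The bases before the start are printed 5′ to 3′ with every such match in capitals, for Hspa1a (chr17:34972157-34972406, minus strand), Hspb1 (chr5:135887669-135887918, plus strand), Hsph1 at its more upstream start (chr5:149636337-149636586, minus strand), Dnajb1 at its more upstream start (chr8:83607925-83608174, plus strand) and Hspa5 (chr2:34771840-34772089, plus strand):
Hspa1a: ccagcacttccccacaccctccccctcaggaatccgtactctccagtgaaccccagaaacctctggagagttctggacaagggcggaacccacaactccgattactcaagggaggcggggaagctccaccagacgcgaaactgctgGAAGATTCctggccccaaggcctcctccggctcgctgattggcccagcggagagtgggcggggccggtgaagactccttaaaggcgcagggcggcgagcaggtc
Hspb1: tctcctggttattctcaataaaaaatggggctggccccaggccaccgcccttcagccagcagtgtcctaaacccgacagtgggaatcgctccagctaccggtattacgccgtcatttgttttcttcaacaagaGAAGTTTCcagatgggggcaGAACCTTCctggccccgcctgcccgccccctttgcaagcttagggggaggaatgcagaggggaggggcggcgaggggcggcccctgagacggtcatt
Hsph1: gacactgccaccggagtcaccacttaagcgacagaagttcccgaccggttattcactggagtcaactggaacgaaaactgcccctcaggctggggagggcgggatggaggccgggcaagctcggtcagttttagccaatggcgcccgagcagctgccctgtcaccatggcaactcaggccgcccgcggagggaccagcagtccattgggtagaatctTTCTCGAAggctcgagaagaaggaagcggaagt
Dnajb1: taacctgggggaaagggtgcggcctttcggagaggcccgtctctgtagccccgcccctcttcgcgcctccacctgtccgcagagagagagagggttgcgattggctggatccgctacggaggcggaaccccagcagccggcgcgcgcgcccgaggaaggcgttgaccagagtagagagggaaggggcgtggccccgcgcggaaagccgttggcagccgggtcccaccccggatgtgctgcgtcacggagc
Hspa5: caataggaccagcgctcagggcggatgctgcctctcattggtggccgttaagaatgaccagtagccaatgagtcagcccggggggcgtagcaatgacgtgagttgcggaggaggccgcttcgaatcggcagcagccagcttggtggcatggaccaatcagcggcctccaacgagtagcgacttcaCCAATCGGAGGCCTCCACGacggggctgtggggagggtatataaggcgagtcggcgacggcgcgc

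Matches to the 3-unit element lay in windows of 3 of the 8 genes, against 0.603% of 32851 windows of the same 300 bases over all genes. In Hspe1 a pair of matches on opposite strands overlapped, from base -89 to -72 counted from the start. Hsph1 had its match after the start, at bases 37 to 49. Both are printed with a few flanking bases and with the 3-unit matches in capitals, for Hspe1 from chr1:55088053-55088082, plus strand, and for Hsph1 from chr5:149636287-149636308, minus strand:
Hspe1: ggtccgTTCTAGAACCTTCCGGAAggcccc
Hsph1 after the start: gctgcagaTTCTGGAAAGTTCt

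The same pair of overlapping matches was found in the window of the more downstream Hspd1 start, read from the other strand, since Hspd1 and Hspe1 are neighbours on chromosome 1 that are transcribed away from each other. GAANNTTC was matched in 6 of the 8 genes, against 7.86% of all windows: at bases -104 to -97 in Hspa1a and Hspa1b, at -117 to -110 and -97 to -90 in Hspb1, and in Hsph1, Hspd1 and Hspe1. TTCNNGAA was matched in 3, against 8.52%, and in Hsph1 it lay at -33 to -26. The Hspa1a and Hspa1b windows differed at 4 of 300 bases, and Hspd1 and Hspe1 share a stretch, so these genes are not separate cases. Members are counted by gene, some with more than 1 window, whereas the shares are by window. Dnajb1 had no match to these heat shock patterns in either of its windows, which says only that those letters are not there. Hspa5 alone matched the ER stress response element, at bases -65 to -47, against 0.119% of all windows. A palindromic estrogen response element, GGTCA and TGACC with 3 bases between them, matched 0 of the 8 genes and 0.07% of all windows. A match is a description of letters and not a site shown to be bound.

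**Figure D1:**
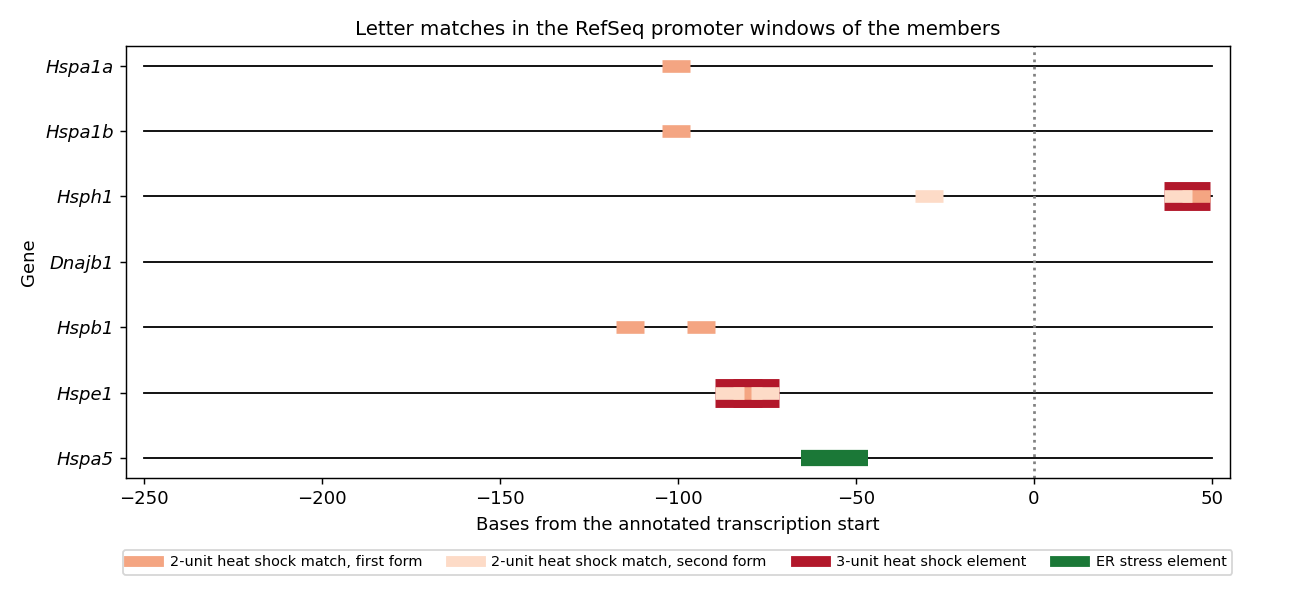
Positions of letter matches in the RefSeq promoter windows of 7 members, the more upstream start being drawn where there are several; the horizontal axis is bases from the annotated start (dotted line), and bar colours give the pattern. Hspe1 and Hsph1 hold a 3-unit heat shock element, Hspa1a, Hspa1b and Hspb1 hold 2-unit matches, Hspa5 holds the ER stress element and Dnajb1 holds none of these.

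The arrays are Affymetrix expression arrays, on which each probe set gives 1 brightness value, and the deposited values were not on a common scale, with trimmed means of 157 (BPA P0) to 277 (DES E17). All signals below are after quantile normalization and have no unit. Actb gave 3′ to 5′ ratios of 1.19 to 1.31, a check of RNA length. The 6 urogenital sinus markers with a probe set of their own (Shh, Hoxd13, Hoxa13, Foxa1, Trp63 and Krt5) all passed the level filter, and their summed signal was 4203 on the control P0 array, 4567 on the BPA P0 array and 5499 to 6169 on the other 7. Summed epidermal markers were 7241 on the BPA E18 and 18227 on the BPA P0 array against 937 to 1996 on the other 7. Gonadal markers summed to 3245 on the BPA P0 array against 302 to 418 on the other 8. In RNA from whole tissue, fewer cells of a type and less RNA per cell cannot be told apart.

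Probe sets of 1 gene are not independent, and no level is set against that of another probe set. The suffix _x_at marks probe sets with probes that can match other transcripts, and _s_at and _a_at mark sets shared by several transcripts. Hspa1a and Hspa1b encode nearly identical proteins, so their probe sets may partly read each other.

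Across the set, the BPA E17 array was the highest of the 9 for 17 of the 24 member probe sets past the filter, against 9.54% of all 26999. It was at least 1.5 times above every other array for 8 of them, against 0.107% of all (29 probe sets). Those 8 were all the probe sets of Hspa1a, Hspa1b, Hsph1 and Hspb1. On their brightest probe sets, Hsph1, Hspa8, Hsp90aa1, Hspd1 and Hspa5 read lowest on the control P0 and BPA P0 arrays, with DES P0 above both. For Hspd1, DES P0 (3253) was only just above BPA P0 (3202).

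**Figure D2:**
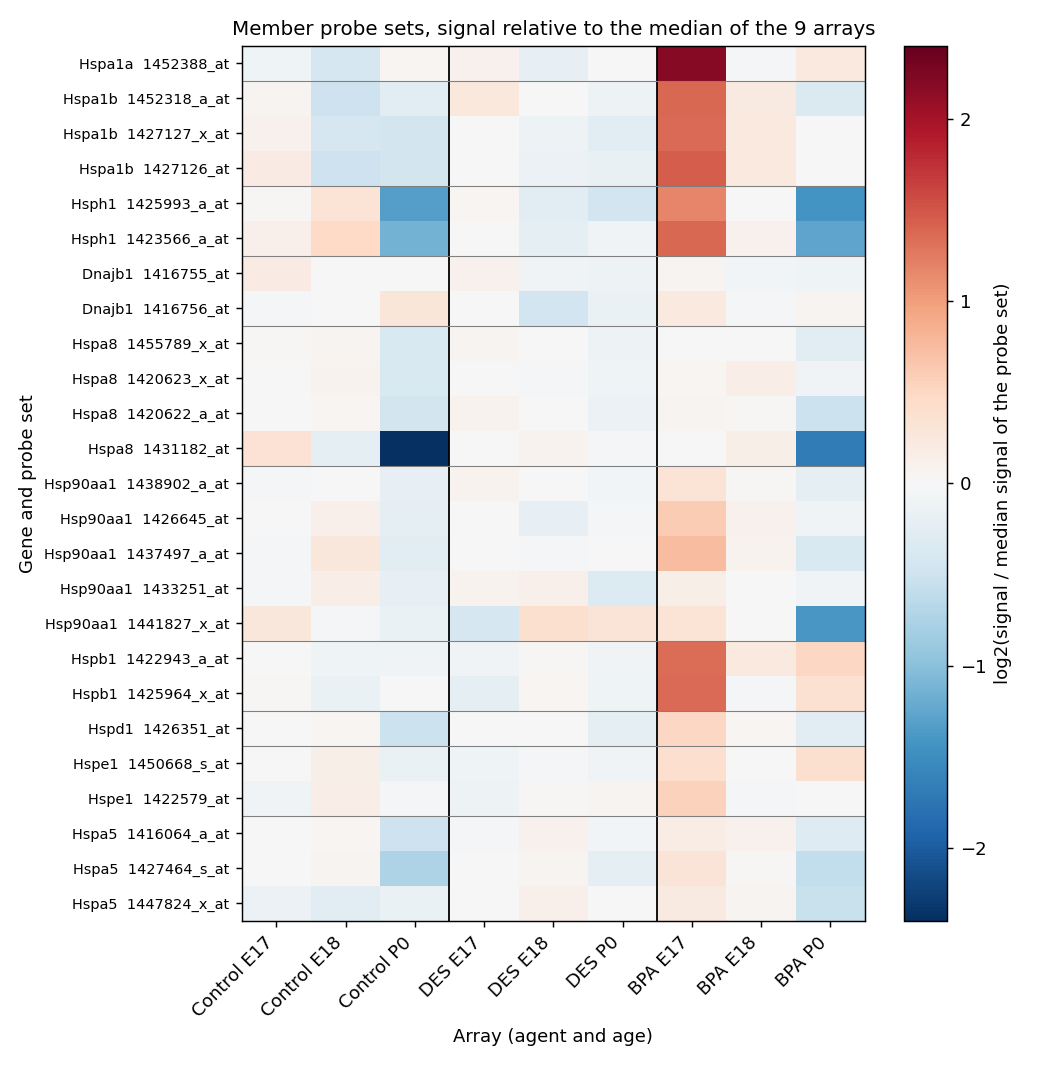
Signal of the 25 member probe sets on the 9 arrays, as log2 of the signal over the median of that probe set's 9 values; rows are probe sets grouped by gene, columns are arrays, red is above and blue below the median. The BPA E17 column is deepest red for Hspa1a, Hspa1b, Hsph1 and Hspb1, and the control P0 and BPA P0 columns are blue for Hsph1 and the dim Hspa8 probe set.

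Hspa1a and Hspa1b encode the stress-inducible cytosolic HSP70, and both read highest on the BPA E17 array. The Hspa1a probe set 1452388_at read 278, 227 and 307 at E17, E18 and P0 on the control arrays, 321, 261 and 299 on the DES arrays, and 1364, 289 and 350 on the BPA arrays. Only the BPA E17 array stood apart, at 4.90 times the control array of its age and 3.90 times the next highest array, and the other 8 lay between 227 and 350. The brightest Hspa1b probe set, 1452318_a_at, read 1535, 1041 and 1213 on the control arrays, 1756, 1469 and 1346 on the DES arrays, and 3828, 1708 and 1153 on the BPA arrays. Again BPA E17 was highest, 2.49 times control E17 and 2.18 times the next array, DES E17, whereas BPA P0 was within the control range. The other Hspa1b probe sets, 1427126_at and 1427127_x_at, were 2.32 and 2.20 times their next highest arrays at BPA E17, with 2510 and 2742. In the control arrays alone, 1427126_at read 1046 at E17, 648 at E18 and 674 at P0.

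Markers of neighbouring cell types were read beside these values. On the BPA E17 array the 4 uroplakins of the urothelium (Upk1a, Upk1b, Upk2 and Upk3a) summed to 6596 against 3466 to 5684 on the other 8 arrays, and all 4 were higher than on the control E17 array. The 6 smooth muscle markers summed to 35947 against 20909 to 34181, with 5 of them higher than on the control E17 array. Sums for skeletal muscle (8 markers, 10683 against 11481 to 15686), leukocytes (5 markers, 1433 against 1473 to 1891) and endothelium (4 markers, 1857 against 1901 to 2300) were below those of the other 8 arrays. Within them, 3 skeletal muscle, 3 leukocyte and 0 endothelial markers were nevertheless higher than on the control E17 array. The skeletal muscle markers Acta1 (7771) and Ckm (1040) had their highest values on BPA E17. None of these markers was at 0 on any array. Their part in the BPA E17 values was not tested. The 21 other probe sets at least 1.5 times above every other array included Pmaip1, a stress-induced BH3-only gene (269 against 78.3 to 125), Apoa1, the main HDL apolipoprotein (351 against 3.66 to 175, and 281 against 3.75 to 131 on a second probe set), and Aqp3, an epithelial water channel (252 against 74.7 to 163). Apoc3, another apolipoprotein made in liver and gut like Apoa1, read 145 against 17.4 to 75.6, and Cps1, a urea cycle enzyme of liver and gut, read 117 against 31.2 to 63.1. The part of such RNA in the member values was not tested. Those 5 genes were picked with their values known.

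Hsph1 encodes HSP110, an HSP70-like protein that exchanges nucleotide for HSP70, and it differed both at BPA E17 and at birth. Its brightest probe set, 1425993_a_at, read 1038, 1279 and 405 at E17, E18 and P0 on the control arrays, 1041, 844 and 738 on the DES arrays, and 2292, 1013 and 374 on the BPA arrays. BPA E17 was 2.21 times control E17 and 1.79 times the next highest array. Control P0 was 3.16 times below control E18 and BPA P0 2.71 times below BPA E18, while DES P0 was 1.15 times below DES E18. The control and BPA P0 readings were the lowest pair of the 9, and those of the other 7 arrays began at 738. The second probe set, 1423566_a_at, read 742, 957 and 313 on the control arrays, 686, 581 and 647 on the DES arrays, and 1792, 740 and 284 on the BPA arrays, with the same 3 arrays apart from the rest.

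Dnajb1 encodes the cytosolic J-domain protein HSP40, which delivers clients to HSP70, and it had no comparable step. Probe set 1416755_at read 1072, 935 and 938 on the control arrays, 1005, 881 and 854 on the DES arrays, and 979, 891 and 875 on the BPA arrays. The BPA E17 value lay below both other E17 arrays, and the ranges of the 3 agents overlapped. Probe set 1416756_at ran from 546 on DES E18 to 912 on control P0, with BPA E17 at 878.

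Hspa8 encodes the constitutive cytosolic HSC70, and its readings were lower at P0 than before birth. Probe set 1455789_x_at read 9803, 10010 and 7431 at E17, E18 and P0 on the control arrays, 10023, 9583 and 8756 on the DES arrays, and 9677, 9473 and 7892 on the BPA arrays. The 3 P0 values (7431 to 8756) lay below the 6 prenatal ones (9473 to 10023), and the BPA E17 array was within the prenatal range. Probe set 1420622_a_at read 5722, 7043 and 5413 on the control, DES and BPA P0 arrays. Probe set 1420623_x_at read 6262, 7500 and 7551 on them, so there DES P0 was not above BPA P0. The dim probe set 1431182_at read 197, 132 and 27.7 on the control arrays, 155, 165 and 149 on the DES arrays, and 157, 172 and 48.2 on the BPA arrays. Here control P0 and BPA P0 were again the lowest, and at these levels a reading is close to the level filter.

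Hsp90aa1 encodes the inducible cytosolic HSP90 alpha, which has steroid receptors among its clients. Probe set 1438902_a_at read 6523, 6677 and 5841 on the control arrays, 7100, 6677 and 6368 on the DES arrays, and 8333, 6851 and 5743 on the BPA arrays. BPA E17 was highest, at 1.17 times the next array. Probe sets 1426645_at and 1437497_a_at gave 1.40 and 1.38 times the next highest array there, 6299 and 6227. On the brightest probe set, control P0 and BPA P0 were lowest, with DES P0 above both. On 1437497_a_at they were lowest too (3110 and 2890), whereas on 1426645_at DES E18 (3615) lay below BPA P0 (3917). The dim probe set 1433251_at ran from 37.0 to 52.2 and had its highest value at control E18.

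Hspb1 encodes HSP27, a small heat shock protein found in muscle and epithelia. Probe set 1422943_a_at read 2444, 2290 and 2301 at E17, E18 and P0 on the control arrays, 2299, 2476 and 2315 on the DES arrays, and 6169, 2867 and 3468 on the BPA arrays. BPA E17 was 2.52 times control E17 and 1.78 times the next highest array, BPA P0. All 3 BPA values lay above all control and DES values, with means of 4168 ± 1759 for BPA, 2345 ± 86.1 for control and 2363 ± 97.7 for DES (SD, n = 3). With probe set 1425964_x_at the BPA E18 value of 1931 was within the control range of 1770 to 2031, and BPA E17 and BPA P0 were 5092 and 2549. Among the brightest probe sets, Hspb1 was the only member whose BPA values lay above all of the control and DES values. The smooth muscle and urothelial sums were above those of the other 8 arrays at BPA E17, as given above, and their part in the Hspb1 values was not tested.

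Hspd1 and Hspe1 encode the mitochondrial chaperonin HSP60 and its co-chaperonin HSP10, which work as a pair. The only Hspd1 probe set, 1426351_at, read 3847, 3947 and 2674 on the control arrays, 3825, 3838 and 3253 on the DES arrays, and 5388, 3953 and 3202 on the BPA arrays. BPA E17 was highest, at 1.36 times the next array, and the 3 P0 values (2674 to 3253) lay below the 6 prenatal ones. The brightest Hspe1 probe set, 1450668_s_at, read 2379, 2595 and 2122 on the control arrays, 2189, 2291 and 2225 on the DES arrays, and 3144, 2366 and 3102 on the BPA arrays. Hspe1 was thus high on BPA P0 as well as on BPA E17, whereas Hspd1 was not. The other Hspe1 probe set, 1422579_at, was 1244 at BPA E17 and 777 to 943 on the other 8 arrays, and its BPA P0 value of 843 was within that range, so the probe sets of Hspe1 disagree at BPA P0.

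Hspa5 encodes BiP, the HSP70 of the ER and a marker of the unfolded protein response. Probe set 1416064_a_at read 5649, 5872 and 4006 on the control arrays, 5510, 6038 and 5373 on the DES arrays, and 6350, 6061 and 4559 on the BPA arrays. Control P0 and BPA P0 were lowest, 1.47 and 1.33 times below E18 of the same agent, and DES P0 was 1.12 times below DES E18. Probe set 1427464_s_at gave the same order at P0, with 2214 on control, 2455 on BPA and 3174 on DES. Probe set 1447824_x_at was lowest at BPA P0 (896), while control P0 (1153) was within the range of the prenatal control arrays.

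**Figure D3:**
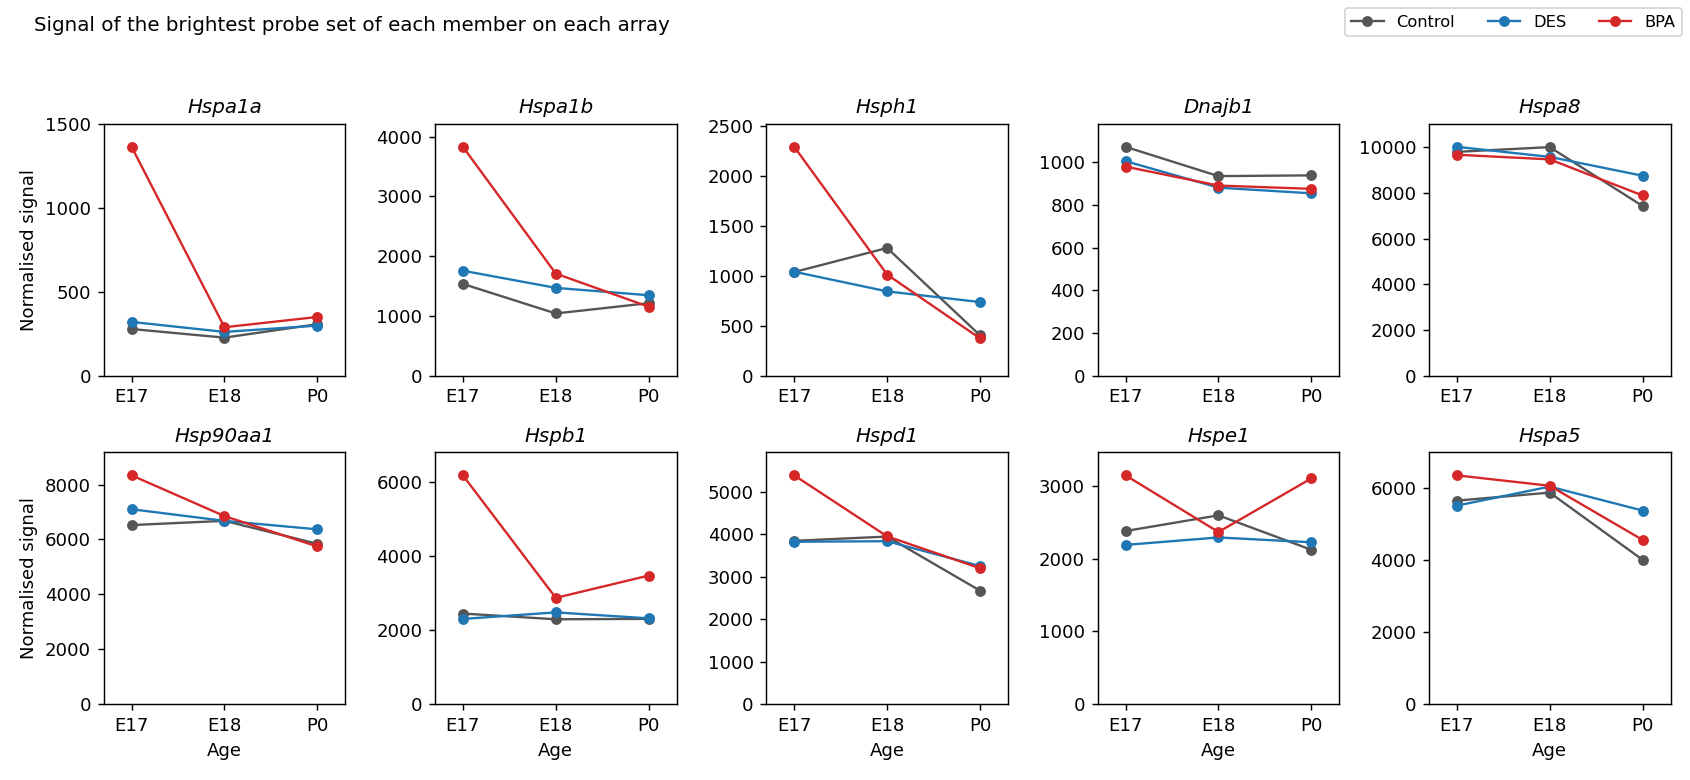
Normalised signal (vertical axis, from 0) of the brightest probe set of each member at E17, E18 and P0, 1 array per point, with lines joining the arrays of an agent (grey control, blue DES, red BPA). Hspa1a, Hspa1b, Hsph1 and Hspb1 have BPA E17 at least 1.5 times above each of the other 8 arrays. For Hsp90aa1, Hspd1, Hspe1 and Hspa5 it is also highest, by less. Hsph1, Hspa8, Hsp90aa1, Hspd1 and Hspa5 are lowest at P0 on the control and BPA arrays.

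How these readings stand by agent was fitted with age and agent as factors, so the 3 ages of an agent serve as its repeats. In the BPA comparison with control, limma found 0 of 26999 probe sets at an adjusted p under 0.05 (0%), and 0 members. At an unadjusted p under 0.05 there were 2118 (7.84%), with 8 of 24 members, all higher (3.53% of all were higher). Fitted differences were 0.93 ± 0.36 for Hspa1a, 0.65 ± 0.22 for Hspa1b and 0.75 ± 0.18 for Hspb1 (log2, ± SE, brightest probe set). Hspd1 and Hspe1 had 0.25 ± 0.10 and 0.27 ± 0.12, and Dnajb1 had -0.10 ± 0.08. Without the BPA E17 array, Hspa1a was 0.28, Hspa1b 0.30 and Hspb1 0.43, and Hsph1 moved from 0.23 to -0.24. In the DES comparison, limma also found 0 (0%) after adjustment, 0 of them members, and 1520 (5.63%) at an unadjusted p under 0.05, with 1 of 24 members, lower (2.73% of all were lower). Fitted DES differences of the brightest probe sets were between -0.10 (Dnajb1) and 0.28 (Hspa1b). Both comparisons share the control arrays.

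Array by array, BPA E17 was at least 1.5 times above control E17 for 11 member probe sets, against 3.97% of all, and DES E17 was so for 0, against 3.01%. At E18, 3 member probe sets were at least 1.5 times higher with BPA than in control (4.94% of all), and at P0 2 were (7.06%). When each agent was given its own linear age term, the fit found 2 probe sets (0.00741%) in limma after adjustment for the change of the BPA difference with age, 0 of them members. At an unadjusted p under 0.05 it found 2310 (8.56%), with 9 members, all lower (4.85% of all were lower). Per age step the BPA difference was -1.04 ± 0.26 for Hspa1a, -0.69 ± 0.11 for Hspa1b, -0.63 ± 0.24 for Hsph1 and -0.37 ± 0.18 for Hspb1. At E17, E18 and P0 the log2 difference was 2.271, 0.340 and 0.186 for Hspa1a and 1.139, -0.335 and -0.112 for Hsph1. For Hspb1 it was 1.334, 0.323 and 0.591, and for Hspa1b 1.315, 0.711 and -0.072. A linear term cannot tell 1 high array from a steady change. Without the DES E17, DES E18 or DES P0 array, limma's adjusted test gave 98 (0.363%), 164 (0.607%) and 152 (0.563%) probe sets. The brightest Hspa1b probe set was among them each time, and Hspa1a was among them without DES E18 or DES P0. These fits had fewer than the 2 residual degrees of freedom left with all 9 arrays. The fitted values themselves hardly moved, at -0.69 to -0.70 for Hspa1b and -1.04 for Hspa1a. Leaving out each array in turn gave 0 to 164 probe sets. With values as deposited there were 448 (1.66%), 8 of them members, where the median of all probe sets was -0.26. For DES, limma gave 0 (0%) after adjustment, 0 members, and 1949 (7.22%) unadjusted with 3 members. Without DES E18 it gave 53 (0.196%), and as deposited 80 (0.296%), and the dim Hspa8 probe set was the 1 member in each (1.27 and 1.40 per age step).

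By age, most members read lower at P0. Against E17, limma gave 25 probe sets at an adjusted p under 0.05 (0.0926%), 0 of them members, and 4681 (17.3%) unadjusted, with 16 of 24 members, all lower (9.27% of all were lower). Of the 24, 23 were below 0, beside 51.1% of all probe sets. Hsph1 had -1.48 ± 0.33, Hspa1b -0.82 ± 0.22, Hspa1a -0.64 ± 0.36 and Hspd1 -0.50 ± 0.10, and Hspa5 and Hspa8 had -0.34 ± 0.09 and -0.30 ± 0.06. Hspe1 (-0.05 ± 0.12) was nearest to 0. Without the BPA E17 array, P0 minus E17 became 0.01 for Hspa1a and Hspb1, -0.46 for Hspa1b, -1.01 for Hsph1 and -0.36 for Hspd1. Against E18, limma gave 0 (0%) and 0 members after adjustment, and 3638 (13.5%) unadjusted, with 10 members, all lower (7.52% of all were lower). Here 19 of the 24 were below 0, beside 51.2% of all. E18 minus E17 was -0.93 for Hspa1a and -0.28 without the BPA E17 array, and -0.36 and -0.05 for Hspb1. E18 against E17 gave 0 (0%) and 0 members in limma after adjustment, and 743 (2.75%) unadjusted, with 4 members, all lower (1.27% of all were lower).

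**Figure D4:**
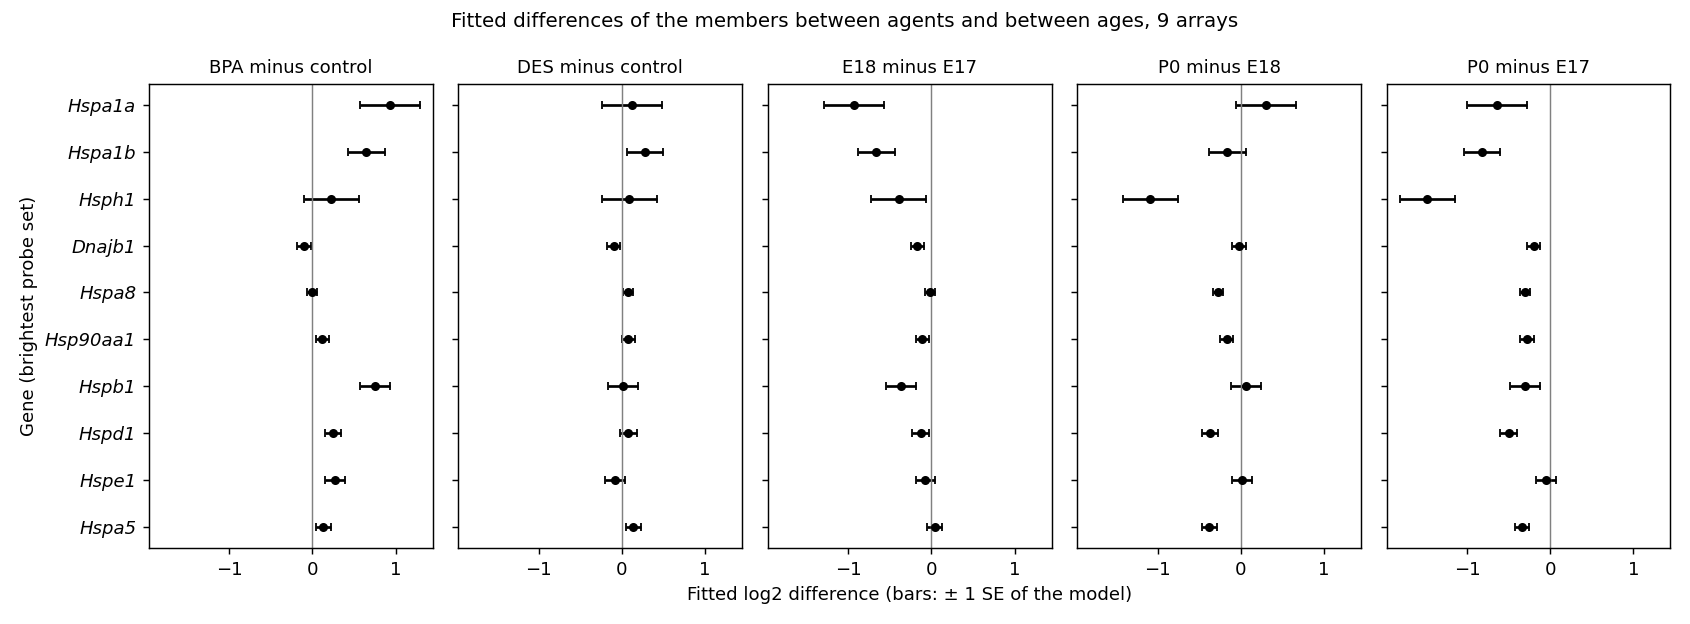
Fitted log2 differences (horizontal axis) of the brightest probe set of each member, 1 panel per comparison over the 9 arrays, with bars of 1 SE of the model on either side. In the BPA panel Hspa1a, Hspa1b and Hspb1 lie farthest to the right (0.93, 0.65 and 0.75), and in the P0 minus E17 panel Hsph1 lies farthest to the left (-1.48).

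Among the fits that left out 1 array in turn, the counts at birth were highest without the DES P0 array. Without it, limma's adjusted test gave 657 probe sets (2.43%) for P0 against E18, with 7 members, all lower: both Hsph1 probe sets (-1.56 and -1.52), 2 of Hspa5 (-0.50 and -0.75) and 3 of Hspa8 (-0.49, -0.33 and the dim set at -1.93). Against E17 it gave 1601 (5.93%) and 8 members, Hspd1 at -0.60 being the addition. Over all such fits the members called were 0 to 7 against E18 and 0 to 8 against E17. The members were chosen with these levels in view, so their counts are a description and not a test. Array by array, 0 member probe sets were at least 1.5 times lower at P0 than at E18 with DES (3.53% of all), against 4 in control (8.84%) and 5 with BPA (9.79%). With the values as deposited, P0 against E17 gave 392 probe sets (1.45%) and 7 members, where the median of all probe sets was itself -0.29, and the 7 members, of Hsph1, Hspa1b, Hspa5 and Hspa8, had -0.89 to -1.78. The count at least 1.5 times lower at BPA P0 than at BPA E18 was then 18. Those arrays were unscaled, with trimmed means of 157 (BPA P0) and 235 (BPA E18). The share of all probe sets is not given for that count, so it does not single out the members.

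Between members, levels on the 9 arrays were correlated over the brightest probe sets, as a description in which all points share the same arrays and scaling. Of 45 pairs, 11 had Pearson r over 0.8, 10 did without BPA E17, and 19 did without control P0 and BPA P0. Hspa1a went with Hspb1 (0.93) and Hspa1b (0.89), which became 0.51 and 0.23 without BPA E17. Hsph1 went with Hsp90aa1 (0.94) and Hspd1 (0.93), which stayed at 0.91 and 0.88, and with Hspa8 (0.85, and 0.96 without it). Hspa8 and Hspa5 had 0.91, and 0.92 without BPA E17. Without the control P0 and BPA P0 arrays, Hspa8 had 0.30 with Hspa5 and 0.46 with Hsph1. Hspd1 and Hspe1, the chaperonin and its partner, had only 0.50, which was 0.91 without the control P0 and BPA P0 arrays.

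Other chaperone genes were read from lists of the same families. In the ER list (22 genes of the unfolded protein response and ER folding) 18 of 22 were below 0 for P0 against E18, with a median of -0.30 beside -0.01 over 13398 genes, and 0 passed limma's adjusted test, while 14 had an unadjusted p under 0.05, all lower (13.4% of all genes had one in either direction). The cytosolic network (19 of 22 genes measured, among them cochaperones of HSP70 and HSP90) had 15 below 0 and a median of -0.14, with 6 at an unadjusted p under 0.05, all lower. Medians for the CCT chaperonin, which folds actin and tubulin (8 genes), for other HSP70 and small HSP genes (11 of 12 past the filter) and for mitochondrial folding (8 genes) were -0.04, -0.05 and -0.01, with 0 genes at an unadjusted p under 0.05 in each. In limma's adjusted test 0 genes of these lists passed in any of the 5 comparisons, while all genes gave 18 for P0 against E17 and 0 in the others.

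From each list the genes of widest range were read array by array. Hspa4, an HSP110-family exchange factor, read 2007, 2317 and 734 on the control arrays, 2446, 2770 and 2232 on the DES arrays, and 2437, 2853 and 647 on the BPA arrays, low on control P0 and BPA P0. Hspa4 probe set 1416147_at was low there too, with 162 on control P0 and 181 on BPA P0 against 342 to 487 on the others. Another Hspa4 probe set, 1416146_at, did not show it, with 863, 812 and 1198 on the control and 1087, 788 and 1005 on the BPA arrays. Chordc1, an HSP90 cochaperone, read 960, 912 and 361 on the control arrays, 964, 916 and 842 on the DES arrays, and 993, 946 and 504 on the BPA arrays. In the ER list, Sdf2l1 read 150 and 96.9 on control P0 and BPA P0 and 204 on DES P0. Creld2 read 242, 300 and 380 on those 3 arrays, and it had its highest value, 655, on BPA E17. Of the CCT ring, Tcp1 ran from 3553 to 4500 and Cct8 from 2211 to 2697, and BPA E17 was the lowest array for Tcp1. The mitochondrial HSP90 Trap1 ran from 449 to 667, and Hscb, a J-domain protein of iron-sulfur cluster assembly, from 202 to 299. Of the small heat shock proteins, Hspb6, which is abundant in smooth muscle, ran from 437 on control E18 to 1109 on BPA E17, beside the smooth muscle sums given above. Hspb3 ran from 53.5 on BPA E17 to 150.5 on DES P0.

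A cold-inducible and an early-response list, both outside the chaperones, were read beside them. Cirbp, a cold-inducible RNA-binding protein, read 493, 569 and 3146 on the control arrays, 573, 705 and 719 on the DES arrays, and 580, 470 and 2351 on the BPA arrays. It was 5.53 times above E18 at control P0 and 5.01 times at BPA P0, and 1.02 times at DES P0. Fitted over all arrays it was 1.60 ± 0.40 for P0 against E18 and did not pass limma's adjusted test (adjusted p = 0.254). Of 20 immediate early genes, 14 were above 0 for P0 against E18, with a median of 0.20 beside -0.01 over all genes. Egr1 read 1152, 766 and 1039 on the control, DES and BPA P0 arrays against 396 to 625 before birth. Fosb read 156 on control P0 and 27.1 to 58.3 on the other 8 arrays. Of these lists, Cirbp and 6 of the early genes had an unadjusted p under 0.05 in limma for P0 against E18, all higher, beside 13.4% of all genes in either direction, and 0 passed after adjustment. Their part in the member values was not tested.

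**Figure D5:**
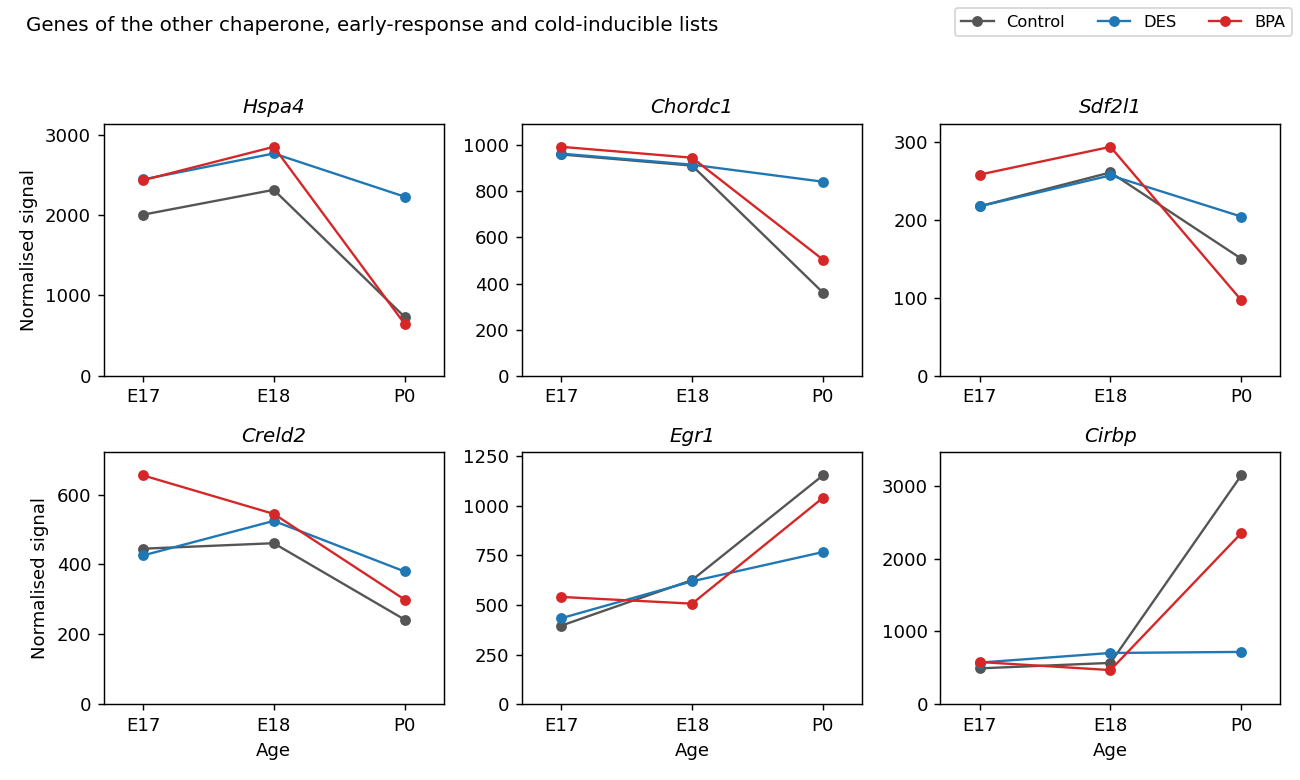
Normalised signal (vertical axis, from 0) of 6 genes outside the set at E17, E18 and P0, 1 array per point, with lines joining the arrays of an agent. Hspa4 and Chordc1 are low, and Cirbp is high, on the control P0 and BPA P0 arrays, with DES P0 close to its E18 value.

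The genes most like 4 members over the 9 arrays were taken from 13388 other genes. For Hspa1a they were Tmem178 (r = 0.942), Taf6l, Stra8, Ugdh and Odc1, and without BPA E17 their r was 0.12 to 0.71. For Hsph1 they were Flrt1 (0.962), Manf, Vegfb, Ankrd22 and Meis1, with 0.92 to 0.98 without that array. Hspd1 was closest to Manf (0.968), Mamdc4, Bend4, 2310065F04Rik and Cldn4. Hspa5 was closest to Kpna4 and Noc2l (0.979 each), then Creld2, Gspt1 and Krt5. These genes were picked from many on 9 points.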

How the data were processed

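The 9 deposited columns hold probe set intensities on a linear scale, made by the authors with MAS5, the Affymetrix summary method, per the submitters' processing notes; version and scaling are not given in the sources used here. They were quantile-normalised and transformed as log2(signal + 5.46), the 10th percentile, which understates differences of dim genes. Of 45101 probe sets, 64 controls were left out and 26999 whose mean log2 level reached the 40th percentile were tested. limma 3.58.1 in R 4.3.3 (lmFit, eBayes with an intensity trend) fitted age and agent to all 9 arrays, leaving 4 residual degrees of freedom, or 2 with the age terms. P-values were adjusted by Benjamini-Hochberg over all tested probe sets, at a threshold of 0.05. They are set against the spread between arrays that the fit leaves over, which may be technical. With 1 array per agent and age, that spread also holds any agent difference that changes with age and is not in the model. The fit was tested on simulated data. The number of arrays limits the precision.

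The members and lists were chosen with earlier results of these data known. Named are all members, from each other list the genes passing in any comparison and the 2 with the widest range, and the 5 genes most like each of 4 members. Gene names come from the platform annotation, in which 932 probe sets carry several symbols and 9211 none, and Rbm3 had only probe sets with several. Alternatives covered scaling, pseudocount, filter, 1 probe set per gene, no intensity trend and leaving out each array.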

Additional observations from a re-analysis of the deposited data

How the results depend on the processing

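With the values as deposited, limma's adjusted test gave 34 probe sets for BPA against control, 3 for E18 against E17, 7 for P0 against E18, 392 for P0 against E17 (7 members), 448 for the change of the BPA difference per age step and 80 for that of DES. For P0 against E17 it gave 62 with a pseudocount of 32, 7 with no level filter, 83 with 1 probe set per gene and 0 without an intensity trend. The BPA age term gave 5, 8 and 0 with the pseudocount of 32, 1 probe set per gene and no trend, and BPA against control gave 2 with 1 probe set per gene. Leaving out each array in turn gave 0 to 8 probe sets for BPA against control, 0 to 0 for DES, 0 to 1 for E18 against E17, 0 to 657 for P0 against E18, 0 to 1601 for P0 against E17, 0 to 164 for the BPA age term and 0 to 88 for the DES age term; members called were 0 to 7 for P0 against E18, 0 to 8 for P0 against E17, 0 to 2 for the BPA age term, 0 to 1 for the DES age term and 0 to 0 for the other 3 comparisons. The cause was not tested. Of 800 recomputed member log2 differences, 709 moved by less than 1 SE and 43 changed sign. Chosen after seeing the data, the counts of member probe sets at least 1.5 times apart were recomputed with other scalings: above every other array at BPA E17 there were 9 as deposited and 8 with trimmed means, and at BPA P0 against BPA E18 18 and 5 were lower. The 18 came from unscaled arrays, and the share of all probe sets is not given for these recounts, so they do not single out the members. The motif searches were also chosen after seeing the data. No paired analysis was possible because the labels give no replicate numbers, and age is already the block in the fit. With 1 array per agent and age, no difference on a single array has a replicate check.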
